A study of Mus musculus with 120 samples.

Results

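Each gene in a liver leaves a pair of RNA species that total RNA sequencing can count: the pre-mRNA, which still carries introns, and the spliced mRNA. Here both were compared within the same library, in 12 libraries of ribosome-depleted total RNA from unfractionated (UT) wild-type (WT) mouse liver, out of 120 libraries in the series. Genes were kept when at least 90% of their counts lay on transcripts with introns and when both species reached 10 counts in 6 of the 12 libraries, which left 10338 of the 12252 genes in the table. The measure is the log2 ratio of mRNA to pre-mRNA, each divided by its own effective length.

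The UT WT livers came from male C57BL/6 mice (C57/BL6J in the methods) aged 8 to 12 weeks, kept under 12 h of light and fed only at night for 3 days before sampling, with 2 mice every 4 h from ZT0, the start of the light phase. Beside them stand 12 UT libraries from Cry1-/- Cry2-/- mice (CryKO, lacking both cryptochrome repressors of the clock) and 12 libraries of total RNA from WT liver nuclei (NT). Age, sex and husbandry of the CryKO mice, feeding included, are not given in the sources used here. The paper names 12 WT mice in all, 2 per time, so that the UT and NT libraries of a time came from the same mice. The sources used here do not tie a replicate number to a mouse. All were collected at the same 6 times, and all libraries compared here are bulk, so that fewer cells of a type and less RNA per cell cannot be told apart.

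A pre-mRNA exists only between transcription and the end of splicing, and its amount follows the rate at which the gene is transcribed. The mRNA accumulates for as long as it survives in the cell. In a tissue at steady state the ratio of the species therefore rises with the lifetime of the mRNA and falls with the time needed for splicing, and 1 ratio cannot separate these quantities.

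In the liver, long-lived mRNAs are typical of housekeeping and secretory products, while transcripts of regulators are often short-lived. One known route of rapid decay runs through AU-rich elements in the 3′ UTR, bound by proteins of the Zfp36 family that recruit deadenylases. The nonamer TTATTTATT, written as DNA, is their classical core.

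Windows of 27 bases around this nonamer are shown for some of the genes whose ratios are given below, because they show the element in its own context. Maff, Ppp1r15a, Cish, Dot1l and Fmn1, among others, hold the nonamer too and are not shown. They were read from GENCODE transcripts (GRCm38), the nonamer is in capitals, and no binding was measured.
Dusp1, chr17:26506160-26506186, minus strand: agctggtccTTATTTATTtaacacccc
Dusp1, chr17:26505871-26505897, minus strand: tttttacctTTATTTATTtttgtgtag
Noct, chr3:51250859-51250885, plus strand: catttcaagTTATTTATTtgtgggatt
Per1, chr11:69109687-69109713, plus strand: gggctgcacTTATTTATTtgggagaga
Zfp36l2, chr17:84184915-84184941, minus strand: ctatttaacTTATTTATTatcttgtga
Nfkbia, chr12:55489609-55489635, minus strand: gaccacgttTTATTTATTgtgcttttg
Col3a1, chr1:45348837-45348863, plus strand: aaattccagTTATTTATTtccaaactt

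The UT WT libraries held 26690000 to 42800000 estimated counts (rounded), of which 22.8 to 26.7% were pre-mRNA. Their median log2 ratio per library lay between 4.09 and 4.38. All 10 hepatocyte markers and all 11 Kupffer cell markers were in the table, as were 10 of 10 markers of the sinusoidal endothelium. Of the other types, 9 of 10 stellate cell, 3 of 7 cholangiocyte and 9 of 11 blood cell markers were. The blood cell markers summed to 229 to 1559 CPM of mRNA. The hepatocyte markers had a summed mRNA level of 28946 to 73849 CPM (counts scaled to the library total) and the Kupffer cell markers one of 221 to 713 CPM. The library ZT4 replicate 1 stood apart: it held the lowest hepatocyte sum and the highest Kupffer sum, and albumin mRNA was 9343 CPM there against 30714 to 52743 CPM in the other 11. Albumin is the largest member of the hepatocyte sum, so the low sum and the low albumin are not separate observations. They do not show that the remaining hepatocyte markers were low. The part of these levels in the results was not tested, and the counts of called genes without each library are given with the processing.

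Across the 10338 genes the median log2 ratio was 4.23, that is 18.8 times more mRNA than pre-mRNA per length. From the 5th to the 95th percentile of genes the log2 ratio ran from 2.02 to 7.06, and 50 genes (0.484%) had a mean below 0. The spread of the mRNA level over genes (SD 2.21 on the log2 scale) was larger than that of the pre-mRNA level (SD 1.76). Between livers the ratio of a gene varied much less, with a median SD of 0.37. In 1246 genes this SD was above 1, and 590 of these had no pre-mRNA counts in at least 1 liver.

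Genes were called when their ratio lay more than 2 log2 units from the median gene at an adjusted p under 0.01 (edgeR quasi-likelihood test with the library as a block, Benjamini-Hochberg adjustment). By this rule 1074 genes (10.4% of those tested) were higher and 661 (6.39%) were lower than the median gene. These percentages are the background for the gene lists that follow.

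Proteins that every cell makes in bulk had high ratios. Of 77 cytosolic ribosomal protein genes tested, 70 were higher and none was lower, and the list's median was 7.91 against 4.23 for all genes. Rplp1, a protein of the ribosomal stalk (chr9:61913284-61914542), had a lowest, median and highest mRNA level of 364, 437 and 519 RPKM in the 12 livers, against 0.43, 0.61 and 1.19 RPKM of pre-mRNA. The species did not come near each other in any liver, and the ratio lay 5.13 ± 0.14 log2 units above the median gene (SE, n = 12; edgeR adjusted p = 2.2e-13).

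The nuclear-encoded respiratory chain behaved alike, with 70 of 77 genes higher, none lower and a median of 7.44. Ndufa1, a subunit of complex I (chrX:37187588-37191163), had a mean log2 ratio of 10.02 ± 0.66 (SD, n = 12). The members differed widely: cytochrome c (Cycs), the electron carrier between complexes III and IV, stood at 2.92 ± 0.44 and the ribosomal protein gene Rpl29 at 2.21 ± 0.41. Neither was called lower. For Rpl29 the weighted effective length of pre-mRNA (417 bases) was below that of mRNA (439 bases), since different transcripts carried the counts of each species.

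Further groups above the median gene included proteasome subunits (16 of 47 higher, none lower, median 5.93), mitochondrial ribosomal proteins (22 of 70 higher, 1 lower, median 5.85), translation factors (14 of 49 higher, 1 lower, median 5.82) and selenoproteins (9 of 16 higher, none lower, median 6.22). The translation elongation factor Eef1a1 had 1908, 2132 and 2393 RPKM of mRNA as lowest, median and highest value, against 3.59, 5.53 and 9.13 RPKM of pre-mRNA. The range of its mRNA over livers was narrow, and its log2 ratio was 8.56 ± 0.27 (SD, n = 12).

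Secreted plasma proteins, the main export product of the hepatocyte, were also high: 54 of 74 were higher, none was lower, and the median was 6.78. Albumin (Alb, chr5:90460897-90476602) had 5060, 22909 and 28564 RPKM of mRNA and 7.67, 36.8 and 86 RPKM of pre-mRNA. Its lowest mRNA value belonged to the ZT4 replicate 1 library, where pre-mRNA was lowest too, and the ratio stayed between 8.00 and 9.95 in all 12 livers. Apolipoprotein A1 (Apoa1), the core protein of high-density lipoprotein, had a log2 ratio of 8.00 ± 0.53 (SD, n = 12). At the low end, Igfbp1, an insulin-regulated binding protein of insulin-like growth factors, had 2.49 ± 0.73, with mRNA between 1.11 and 57.7 RPKM.

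The major urinary proteins, pheromone carriers made in bulk by male liver, had a median of 8.01, with 15 of 19 higher and 1 lower. Their genes are near-identical copies, so that counts can be split between members, and values of single members are uncertain. Mup2 stood at 11.27 ± 1.01 and Mup18 at 0.82 ± 1.22 (SD, n = 12). The same holds for Serpina3k, the highest plasma protein gene, whose pre-mRNA ran from 0 to 84.9 RPKM between livers while its mRNA stayed between 3393 and 4673 RPKM.

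Lists of metabolic enzymes also had medians above that of all genes. Fatty acid oxidation and ketogenesis had a median of 5.85 (12 of 36 higher, none lower), cytochrome P450 enzymes 5.59 (19 of 53 higher, 2 lower), urea cycle and amino acid breakdown 5.29 (4 of 48 higher, none lower), sterol synthesis 5.16 (3 of 27 higher, none lower) and gluconeogenesis and glycogen 4.50 (3 of 25 higher, none lower). For urea cycle, sterol and gluconeogenesis genes the shares called higher, 8.3, 11.1 and 12.0%, were near the 10.4% of all genes. The mitochondrial aspartate aminotransferase Got2 had 154, 168 and 182 RPKM of mRNA, against 0.90, 1.12 and 1.45 RPKM of pre-mRNA. Both species were steady over the 12 livers, and the log2 ratio was 7.21 ± 0.19 (SD, n = 12). Within fatty acid synthesis, the desaturase Scd1 stood at 8.41 ± 1.58 and the lipid droplet protein Pnpla3 at 1.32 ± 0.98, and both were called, in opposite directions. The call of Pnpla3 was lost without length correction and with the lengths of its most abundant transcript.

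**Figure D1:**
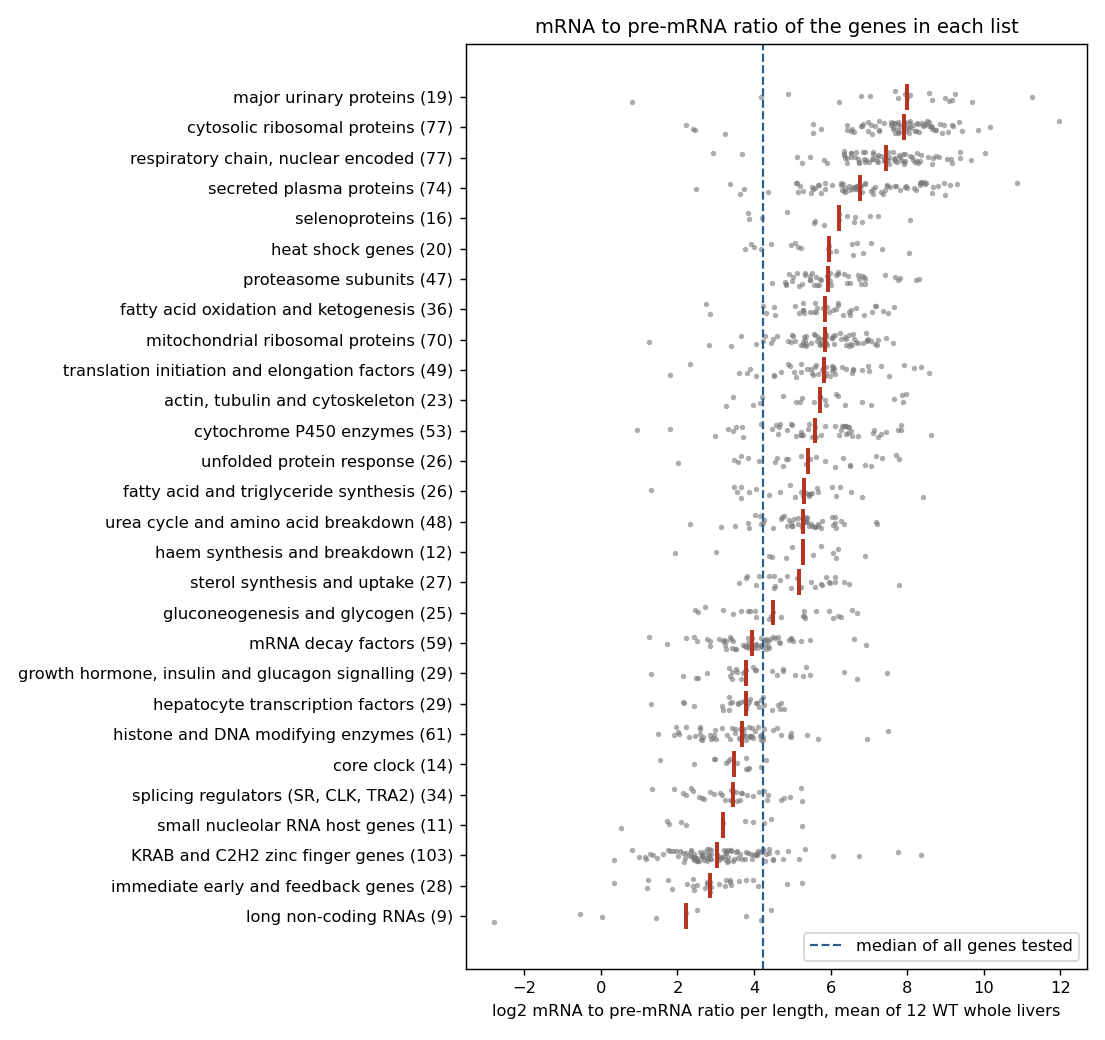
The log2 mRNA to pre-mRNA ratio of each gene (grey points, mean of 12 UT WT livers) is plotted by gene list, with the number of genes tested in brackets, the list median as a red bar and the median of all genes (4.23) as a dashed line. Major urinary, ribosomal, respiratory chain and plasma protein lists have medians from 8.01 to 6.78, whereas immediate early genes and long non-coding RNAs lie at 2.85 and 2.22.

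Regulators had low ratios. Of 28 immediate early and feedback genes tested, 5 were lower, none was higher, and 26 had a mean ratio below that of the median gene, with a list median of 2.85. Dusp1, a phosphatase that switches off MAP kinases, had 6.07, 10.7 and 26.3 RPKM of mRNA, against 0.84, 2.09 and 21.2 RPKM of pre-mRNA. In the liver with the lowest ratio the species were about level (log2 ratio -0.11), and the gene lay at -2.33 ± 0.30 from the median gene (SE, n = 12; edgeR adjusted p = 4.4e-06). Retained-intron transcripts held 31.3% of its mRNA counts. Nfkbia, the inhibitor that NF-kB induces against itself, had a log2 ratio of 3.60 ± 0.18 and Zfp36l2, itself a decay factor that binds AU-rich elements, 2.78 ± 0.72 (SD, n = 12), and neither was called.

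Zinc finger genes of the KRAB and C2H2 type, mostly repressors of transposable elements and genes, had a median of 3.04, with 18 lower (17.5% of those tested) and 2 higher. Hepatocyte transcription factors had a median of 3.79 (3 of 29 lower, none higher). Foxo1, which drives fasting genes and is held back by insulin (chr3:52268336-52353221), had 3.21, 3.73 and 7.61 RPKM of mRNA, against 1.25, 1.49 and 2.50 RPKM of pre-mRNA. Its log2 ratio was the lowest of this list, between 0.72 and 1.63 in the 12 livers, and lay at -2.90 ± 0.08 from the median gene (SE; edgeR adjusted p = 3.9e-13).

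Genes that act on RNA and chromatin were mostly below the median gene as well. Splicing regulators had a median of 3.44 (3 of 34 lower, none higher), histone and DNA modifying enzymes 3.69 (5 of 61 lower, 1 higher) and mRNA decay factors 3.96 (2 of 59 lower, none higher). The shares called lower, 8.8, 8.2 and 3.4%, were near or under the 6.39% of all genes. The splicing-associated protein Pnisr stood at 1.35 ± 0.22, the H3K79 methyltransferase Dot1l at 1.50 ± 0.18, and Noct (Nocturnin), a rhythmically expressed phosphatase of NADP(H), at 1.25 ± 1.01 (SD, n = 12). Without length correction, and with the lengths of the most abundant transcript in place of weighted lengths, Pnisr and Dot1l no longer passed the threshold.

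Transcripts that are not translated were low as well. Small nucleolar RNA host genes had a median of 3.18 (4 of 11 lower, none higher). Long non-coding RNAs of the list had a median of 2.22 (4 of 9 lower, none higher), and over the table's annotation 36 of 53 lincRNA genes were lower and 1 was higher, with a median of 1.60. Mir17hg, the host of a microRNA cluster, had -2.80 ± 3.42 (SD, n = 12), with mRNA at 0 in its lowest liver.

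Among protein coding genes with at least 5 CPM of mRNA, the lowest called ratio belonged to the kinase-like scaffold gene Peak1 (-1.79 ± 1.24), followed by Zc3h7a (-1.26 ± 0.58; SD, n = 12), a zinc finger gene. Zc3h7a had 13.6, 16.3 and 22.7 RPKM of mRNA, against 27.6, 38.5 and 85.8 RPKM of pre-mRNA, so that the estimate for pre-mRNA exceeded that for mRNA in every liver. Retained-intron transcripts held 25.6% of its mRNA counts. At -0.82 and -0.75 followed Nfkbiz, an atypical IkB protein that was not called without length correction, and Fmn1, a formin that nucleates actin. The highest were Rps27l (11.97 ± 2.66) and the RNA demethylase Alkbh5 (11.79 ± 2.82), each with no pre-mRNA counts in 5 of 12 livers. Of the 10 highest, Mup2 and Ndufa1 had pre-mRNA counts in every liver.

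The count filter also shaped which genes could be described. Of 11455 genes with introns, 796 passed on mRNA and failed on pre-mRNA, with a median log2 ratio of 7.01, and 140 passed on pre-mRNA and failed on mRNA, with a median of 0.06. Neither group enters the counts above.

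The ratio varied with the structure of the transcript. Over 10155 protein coding genes, the median log2 ratio was 5.12 in the shortest of 5 equal length classes (median 760 bases) and 3.86 in the longest (median 5798 bases), and Spearman's rho across genes was -0.30. For the length of the 3′ UTR the medians were 4.81 in the shortest class and 3.87 in the longest (rho -0.24, 9179 genes), and for the coding sequence 4.95 and 3.92 (rho -0.24). Pre-mRNA length (rho -0.13), the number of introns (rho -0.05) and GC content at the last codon position (rho 0.01) went with smaller differences. Genes are not independent replicates, and lengths enter the ratio itself, so these are descriptions.

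Of the 9179 genes with a 3′ UTR, 562 (6.12%) held the nonamer on the sense strand, and their median log2 ratio was 3.57, against 4.30 in the 8617 without it. The share called lower was 10.5% with the nonamer and 5.04% without. Since long UTRs hold more of any motif, the genes were split by UTR length: the median was lower with the nonamer in each of the 5 length classes, from 4.02 against 4.84 in the shortest to 3.52 against 3.96 in the longest. The shorter pentamer ATTTA did not keep 1 direction. Over all genes the median was 4.51 without it and 3.90 with 6 or more copies. In length classes 3, 4 and 5, with 24, 202 and 805 genes at 6 or more, these medians were 4.40 and 3.90, 3.97 and 4.05, and 3.54 and 3.86. The immediate early list held the nonamer in 7 of 26 genes (26.9%), and 6 of 57 mRNA decay factors (10.5%) held it. It was found in none of the cytosolic ribosomal protein, proteasome and P450 genes with a UTR, lists with high ratios, but also in none of 27 splicing regulators, whose ratios were low, and in 1 of 56 histone and DNA modifying enzymes and 1 of 29 hepatocyte transcription factors. Mitochondrial ribosomal proteins held it in 2 of 57. Other lists with a median ratio above that of all genes held it more often than the 6.12% of all genes. Among them were fatty acid and triglyceride synthesis (3 of 26, 11.5%), the unfolded protein response (2 of 25, 8%) and sterol synthesis (2 of 25, 8%). Single genes differed too: Per1 and Noct, whose windows are shown above, had log2 ratios of 2.42 and 1.25, but Col3a1, a collagen of stellate cells with the same nonamer, had 7.05 ± 0.39 (SD, n = 12). Of the 7 immediate early genes with the nonamer, Maff (5.26), Ppp1r15a (4.11), Nfkbia (3.60) and Cish (3.385) lay above the list median of 2.85. Dusp1 (1.87), Per1 (2.42) and Zfp36l2 (2.78) lay below it.

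**Figure D2:**
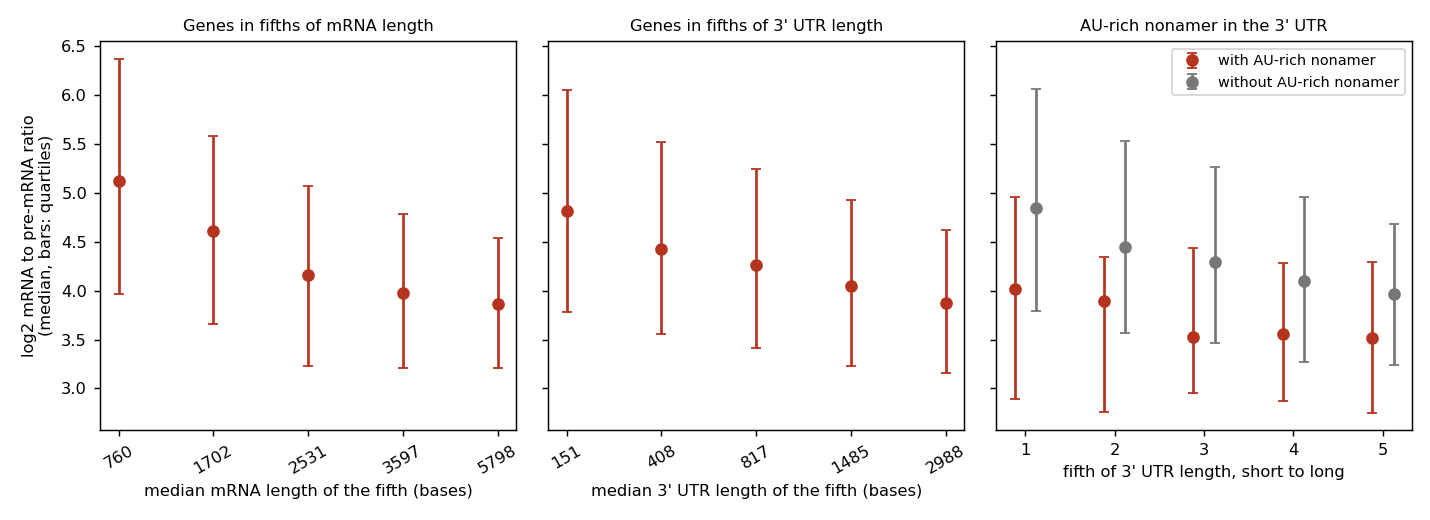
Median log2 mRNA to pre-mRNA ratio of protein coding genes (points; bars span the quartiles over genes) in 5 equal classes of mRNA length, in 5 classes of 3′ UTR length, and by the nonamer within those UTR classes. The medians run from 5.12 to 3.86 over mRNA length, and genes with the nonamer lie below those without it in each class.

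The circadian clock of the liver sets transcription of its own genes and of many metabolic genes to a time of day. A rhythm in transcription appears first in pre-mRNA, and a long-lived mRNA follows later and with a smaller range, because molecules of earlier hours remain. A rhythm was called from harmonic terms with a period of 24 h, and the range is the log2 distance between trough and peak.

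At an adjusted p under 0.05 (edgeR), mRNA was rhythmic in 1263 genes (12.2% of 10338) and pre-mRNA in 135 (1.31%). DESeq2 called 2209 and 618, and with a replicate block edgeR called 1093 and 34. The pre-mRNA count rested on single libraries. It was 100 or more without ZT4 replicate 1, ZT16 replicate 1 or ZT20 replicate 2, and 13 to 77 without any other library, lowest without ZT0 replicate 1. The mRNA count was 810 without ZT12 replicate 1, 764 without ZT12 replicate 2, 762 without ZT16 replicate 1 and 728 without ZT8 replicate 2, and 871 to 1582 without any other library.

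Of 14 core clock genes tested, 11 had a rhythmic mRNA and 9 a rhythmic pre-mRNA. The ratio of 13 of the 14 lay below the median gene, with a list median of 3.46, and Per3 was called lower (1.54 ± 0.81; SD, n = 12), though not without length correction. Nr1d1 (REV-ERB alpha, a repressor of Arntl) had 16.97 and 46.72 RPKM of mRNA at ZT4, 48.07 and 61.25 at ZT8, and 0.55 and 0.44 at ZT20. Its pre-mRNA was 2.56 and 6.25 RPKM at ZT4, 6.05 and 6.61 at ZT8, and 0.10 and 0.041 at ZT20. Both species were high in the same livers, with ranges of 6.59 and 6.48, and the mRNA peaked 0.37 h after the pre-mRNA.

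Dbp, a PAR bZIP activator of output genes, had 81.07 and 77.51 RPKM of mRNA at ZT8 and 0.72 and 0.71 at ZT0, with a range of 6.87 for mRNA and 7.07 for pre-mRNA. Its mRNA peaked at ZT10.6 and its pre-mRNA at ZT9.4. The activator Arntl (BMAL1) ran in the opposite phase, with 10.69 and 10.88 RPKM of mRNA at ZT0 and 0.30 and 0.27 at ZT12. Its ratio, 4.31 ± 0.60 (SD, n = 12), was the highest of the clock list, and its mRNA followed pre-mRNA by 0.78 h.

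The 135 genes with a rhythmic pre-mRNA were split by their ratio into 3 classes of 45. The mRNA peaked later than the pre-mRNA in 41, 44 and 44 of 45 genes, by a median of 1.35, 2.04 and 4.22 h from the lowest to the highest class, in which the median log2 ratio was 2.94, 4.08 and 5.83. Only 35, 36 and 22 of these genes had a rhythmic mRNA at the same threshold. In the 93 genes with both rhythms, split in the same way, the median lag was 1.22, 1.81 and 3.30 h. In the 135 genes the median range of pre-mRNA was 1.83, 2.13 and 2.22, and that of mRNA 1.54, 1.28 and 0.96. In the 93 genes these medians were 1.82, 2.55 and 2.24 for pre-mRNA and 1.95, 2.18 and 1.25 for mRNA. Across the 135 genes Spearman's rho of the ratio was 0.56 with the lag and -0.42 with the difference in range. The genes were chosen by their pre-mRNA rhythm, which favours large pre-mRNA ranges, they share the same 12 livers, and the values are a description. In the 1263 genes chosen by mRNA rhythm the median lag was 1.13, 1.74 and 2.41 h over the 3 classes, the median range was 0.76 for mRNA and 0.77 for pre-mRNA, the mRNA range was smaller in 616 genes, and rho was 0.23 with the lag and -0.26 with the difference in range.

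**Figure D3:**
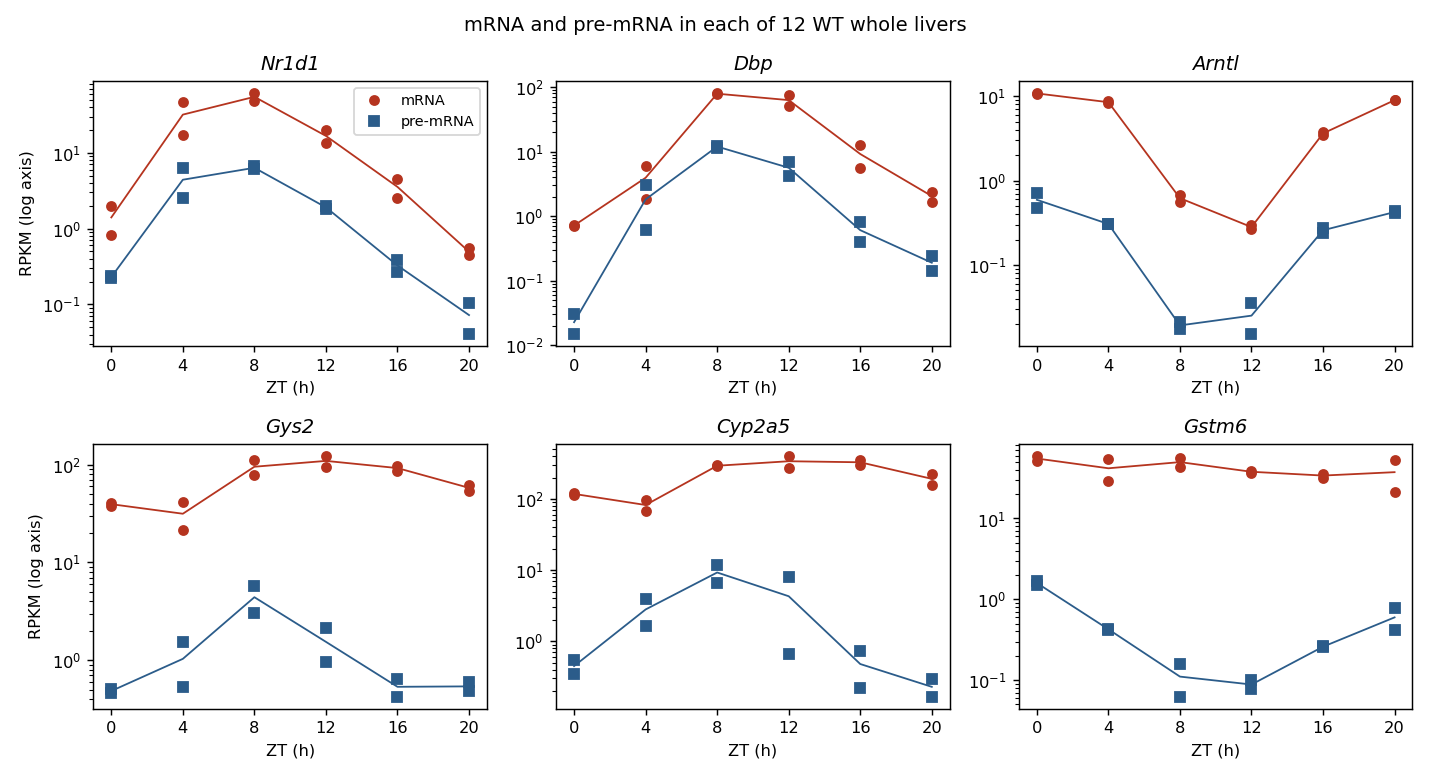
mRNA (red circles) and pre-mRNA (blue squares) of 6 genes in each of the 12 UT WT livers, in RPKM on a log axis against ZT in hours, with lines through the mean of the 2 livers. Nr1d1 and Dbp mRNA and pre-mRNA move together, whereas pre-mRNA of Gys2 and Cyp2a5 is near its ZT0 level at ZT16 while their mRNA is still high, and mRNA of Gstm6 varies less than its pre-mRNA.

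**Figure D4:**
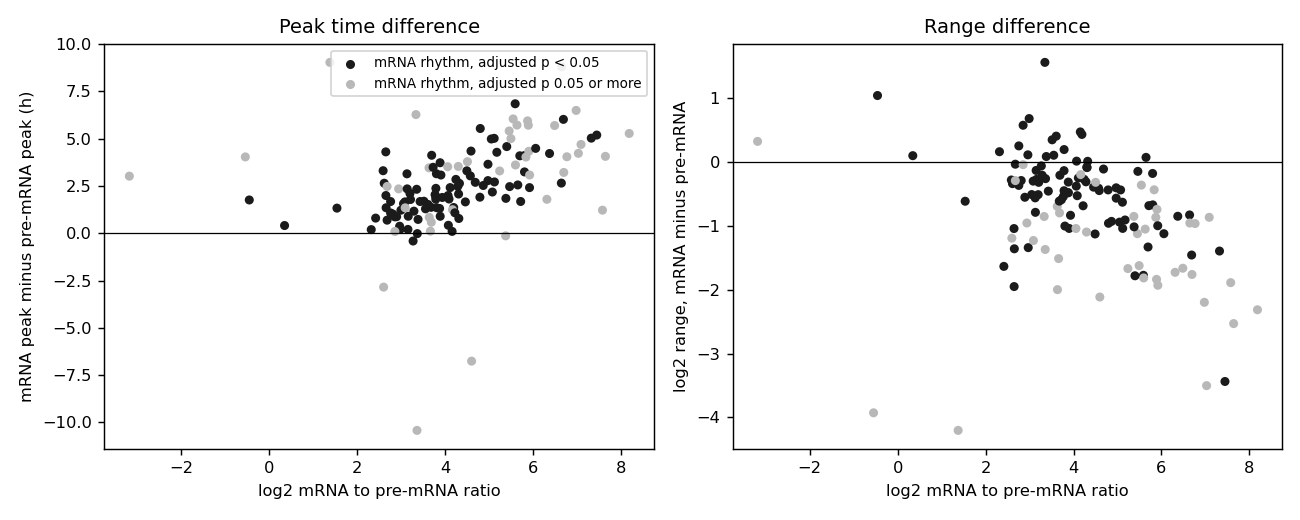
For the 135 genes with a rhythmic pre-mRNA, the difference in peak time (left, mRNA minus pre-mRNA, in hours) and in log2 range (right) is plotted against the log2 mRNA to pre-mRNA ratio; black points have a rhythmic mRNA. Median lags in the 3 classes of the ratio were 1.35, 2.04 and 4.22 h.

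A rhythm of the ratio itself passed the test in 7 of 10338 genes (0.0677%) with edgeR, and 1071 had an unadjusted p under 0.05. The 7 were Gstm6, Cyp2a5, Cyp2c23, Gys2, Pgrmc2, Vps13a and Ugt1a10, of which the last had under 5 CPM of mRNA. DESeq2 called 310 genes (3%), among them these 7, and limma also called 7 genes. No gene passed edgeR's test without ZT0 replicate 1, without ZT0 replicate 2 or without ZT8 replicate 2, 1 passed without ZT4 replicate 2, 7 without ZT4 replicate 1, 8 without ZT20 replicate 2, and 2 or 3 without any of the others.

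Gys2, the liver glycogen synthase, had 40.74 and 38.08 RPKM of mRNA at ZT0, 77.89 and 112.5 at ZT8 and 97.83 and 86.64 at ZT16. Its pre-mRNA was 0.51 and 0.46 RPKM at ZT0, 3.07 and 5.75 at ZT8 and 0.65 and 0.42 at ZT16, back near its low level while mRNA was still high. The log2 ratio was 4.67 and 4.29 at ZT8 and 7.24 and 7.68 at ZT16, a range of 2.71 (edgeR adjusted p = 0.047, and 9.5e-09 with DESeq2). Over all alternatives its adjusted p ran up to 0.187.

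Cyp2a5, a P450 enzyme of coumarin hydroxylation, had 291.7 and 296.7 RPKM of mRNA at ZT8 and 227.1 and 158.0 at ZT20, against 6.64 and 11.92 RPKM of pre-mRNA at ZT8 and 0.29 and 0.17 at ZT20. The ratio had a range of 5.44 (edgeR adjusted p = 0.044, and up to 0.214 over the alternatives). Gstm6, a glutathione transferase, had 50.7 and 59.7 RPKM of mRNA at ZT0 and 43.4 and 56.2 RPKM at ZT8, which was not called rhythmic (edgeR adjusted p = 0.51). Its pre-mRNA was 1.69 and 1.49 RPKM at ZT0 and 0.062 and 0.159 RPKM at ZT8, and its ratio had the lowest adjusted p of the 7 (0.0094 with edgeR, and up to 0.064 over the alternatives). Cyp2a5 and Gstm6 belong to families of similar copies, so single values are uncertain.

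Nuclei hold new transcripts before export, and the ratio in whole liver was set against that in NT libraries, in which 72 to 78.7% of counts were pre-mRNA. The median log2 ratio of the same genes was 4.23 in UT and 1.36 in NT, and Spearman's rho across genes was 0.49. The difference UT minus NT had a median of 2.94, and single genes were tested against it (10648 genes with 10 counts of both species in 12 of the 24 libraries). At a distance over 1 log2 unit and an adjusted p under 0.01 (edgeR), 2453 genes (23%) gained more than the median gene from nucleus to whole liver, and 2223 (20.9%) less.

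The difference contains the UT ratio itself, so that lists with a high UT ratio tend toward a larger difference. Among such lists, 74 of 79 cytosolic ribosomal protein genes were higher and 2 lower. Of 78 respiratory chain genes 73 were higher and 1 lower, and of 74 plasma protein genes 59 were higher and none lower. Markers of stellate and Kupffer cells had median UT ratios of 6.82 and 5.66, but none of them was higher. Rplp1 had a log2 ratio of 9.35 ± 0.48 in UT and 2.61 ± 0.42 in NT (SD, n = 12 each), 3.80 beyond the median difference (edgeR adjusted p = 7.1e-16). Alb had 9.13 ± 0.62 in UT and 3.22 ± 0.54 in NT.

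Splicing regulators lay on the other side, with 28 of 34 lower and none higher, as did histone and DNA modifying enzymes (33 of 61 lower, 1 higher) and zinc finger genes (44 lower, 4 higher). Clk1, a kinase of SR splicing factors, had 2.63 ± 0.24 in UT and 2.48 ± 0.17 in NT, so that its ratio in whole liver was close to that of nuclei (distance -2.79; edgeR adjusted p = 7.8e-19). Clk4 had 3.12 ± 0.14 and 2.54 ± 0.16. All 10 markers of the sinusoidal endothelium were lower too, among them the scavenger receptor Stab2 (3.99 ± 0.17 in UT and 3.28 ± 0.22 in NT), while 7 of 10 hepatocyte markers were higher and none lower. Of 11 Kupffer cell markers 1 was lower and none higher, and of 8 stellate cell markers none was. The share of each cell type among the nuclei was not measured here. Zc3h7a, low in whole liver, had -1.26 ± 0.58 in UT and 1.90 ± 0.21 in NT, the largest negative distance among called protein coding genes at 5 CPM or more (-6.10). Its ratio in whole liver thus lay below that in nuclei, which whole liver contains. Without centring on the median, only 8 genes were called lower in UT than in NT. How the counts of Zc3h7a were divided between the species was not tested, so that its value is uncertain.

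The largest positive distances need care. Prdx5, Rnf7, Slc19a2 and Zfp91 had no pre-mRNA counts in any of the 12 UT livers and passed the filter through NT alone, so that only a lower bound of the UT ratio exists: with 3 counts over the group, it is at least 15.68 for Prdx5 and 13.35 for Rnf7 on the log2 scale. Among 10291 genes that passed in each population on its own, 2322 were higher and 2183 lower.

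Loss of both cryptochromes leaves the liver without a working clock, and the CryKO libraries are the only other whole livers of the series. The targeted genes were still counted: Cry1 mRNA was 1.64 to 2.79 RPKM in CryKO livers and 1.67 to 13.6 RPKM in WT livers, and Cry2 mRNA 2.36 to 3.88 RPKM in CryKO and 4.13 to 12.9 RPKM in WT. For Cry2 mRNA the groups did not overlap, for Cry1 they did. The pre-mRNA of Cry1 had a median of 0.96 RPKM in CryKO (0.35 to 1.19) and 0.22 RPKM in WT livers (0.09 to 0.75), and that of Cry2 one of 1.16 RPKM in CryKO (0.96 to 1.27) and 0.96 RPKM in WT livers (0.48 to 1.34), so that for both genes the pre-mRNA overlapped. Whether the counted stretches lie within the deleted parts was not analysed here, so that these levels check the labels only in part.

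Pre-mRNA took a larger share of the counts in CryKO livers, 29.8 ± 5.25% against 25.2 ± 1.04% in WT livers (SD, n = 12 each; permutation test with 100000 resamples, two-sided, p = 0.00524, adjusted over 4 tests 0.00699). In 11 of 12 CryKO libraries the share was above all WT values. The other, CryKO ZT20 replicate 1, held 14.4%, and without it the CryKO share was 31.2 ± 2.13% (n = 11; permutation p = 2.0e-05, the smallest these resamples can give). The median log2 ratio was 4.01 ± 0.35 in CryKO and 4.20 ± 0.08 in WT (permutation p = 0.0645, also after adjustment), and 3.91 ± 0.14 in CryKO without that library (permutation p = 4.0e-05, adjusted 8.0e-05). The markers of the sinusoidal endothelium summed to 450 to 698 CPM in CryKO and 316 to 509 CPM in WT livers. The 3 cholangiocyte markers in the table summed to 17.7 to 27.3 CPM in CryKO and 24.2 to 69.2 CPM in WT livers. Their part in the difference was not tested.

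**Figure D5:**
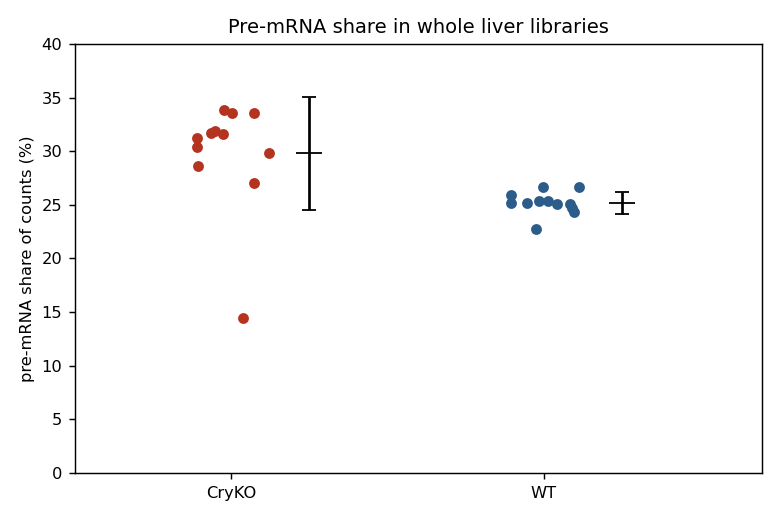
Pre-mRNA share of the estimated counts in each whole liver library (points) of CryKO and WT mice, with the mean and SD of the 12 libraries as a black bar beside each group. All CryKO points but 1 lie above the WT points, and the exception, at 14.4%, is ZT20 replicate 1.

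Per gene, 77 ratios (0.744% of 10343) were higher and 1037 (10%) lower in CryKO than in WT livers at an adjusted p under 0.05 (edgeR, time as a factor). Among 10169 genes that passed the count filter in each genotype on its own, 66 were higher and 999 lower. The median over all genes was -0.21, so that most calls lie on the side of the shift of the whole library. Without CryKO ZT20 replicate 1, 128 were higher (1.24%) and 3617 lower (35.1%), and 1027 of the 1037 lower genes remained. When mRNA and pre-mRNA were scaled apart, which removes the common shift, 564 were higher (5.45%) and 460 lower (4.45%), and with both changes 767 (7.44%) and 582 (5.64%).

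Lists were not tested against this shift, and their counts are given beside it. Of 77 respiratory chain genes 20 were lower and 1 was higher (median -0.34), and 48 were lower without CryKO ZT20 replicate 1. Of 34 splicing regulators 10 were lower and none higher (median -0.17), and 18 without that library. Of 60 histone and DNA modifying enzymes 13 were lower (median -0.30), and 32 without it. Hepatocyte transcription factors (5 of 29 lower, median -0.35) and zinc finger genes (16 lower, median -0.24) had 15 and 35 lower without it. For zinc finger genes the share without it was close to the 35.1% of all genes. Some other lists had no gene lower with all libraries. Among them were fatty acid oxidation (36 tested, median -0.09), fatty acid synthesis (26, -0.22), sterol synthesis (27, -0.16) and the unfolded protein response (24, -0.37). Without that library 8, 3, 2 and 4 of their genes were lower. Cytosolic ribosomal proteins had a median of 0.04, with 3 of 78 higher and 5 lower. Of 14 core clock genes, 2 were lower and none was higher (median -0.24). Across genes, the ratio in CryKO and in WT livers had a Spearman's rho of 0.95.

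Among single genes, Npr2, a receptor of natriuretic peptides, had a log2 ratio of 8.15 ± 1.61 in CryKO and 4.34 ± 0.48 in WT livers (SD, n = 12 each), a fitted difference of 3.53 ± 0.40 (SE; edgeR adjusted p = 9.6e-06). The values ran from 5.39 to 10.50 in CryKO and from 3.45 to 5.17 in WT, without overlap. Sumf1, which activates sulfatases, had 5.14 ± 0.64 in CryKO and 9.37 ± 1.04 in WT (difference -4.17 ± 0.32; edgeR adjusted p = 3.1e-08), and its groups did not overlap either. Both kept their call without CryKO ZT20 replicate 1 and with separate scaling. Slc19a2 and Prelp, 2 of the 5 largest negative differences, had no pre-mRNA counts in any WT liver. They passed the filter through CryKO alone, so that only a lower bound of their WT ratio exists. Mup8, Mup9 and Mup15 also differed, in both directions, within a family of near-identical copies.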

How the data were processed

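Per the labels and the methods of the study, rRNA-depleted total RNA was made into stranded libraries (KAPA HyperPrep with RiboErase) and read in single reads of 65 nucleotides. The authors ran kallisto 0.46.0 against a joint index of mRNA (exons) and pre-mRNA (introns and exons) of GRCm38, which also held rat sequences because rat liver RNA had been added as a spike-in that was not used later. How reads of genes conserved between mouse and rat were assigned was not analysed here. They dropped minor isoforms, and deposited estimated counts per gene, summed over transcripts. Since both references hold the exons, kallisto divides exonic reads between mRNA and pre-mRNA, and a species can be assigned 0 counts.

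From these expected counts, rounded to whole numbers, 131 repeated rows were merged into 12252 genes. Effective lengths were computed from GENCODE M21 transcripts (98.2% of transcripts matched), weighted by their counts. RPKM are scaled by the sum of mRNA and pre-mRNA counts of the library. Ratios per library used a pseudocount of 0.5. Tests used edgeR 4.0.16 on mRNA and pre-mRNA as paired columns of a library, with TMM factors of mRNA applied to both species. DESeq2 1.42.0, limma 3.58.1, other count filters, scalings and lengths, and leaving out each library were the alternatives, and the scripts were tested on simulated data.

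The UT WT libraries held 26690000 to 42800000 counts, rounded. p-values measure the spread between these livers: the WT libraries of a time come from 2 mice, and for CryKO the sources used here do not say.

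Named genes were the 10 highest and 10 lowest called protein coding genes at 5 CPM or more, the extremes and up to 3 further members of each list, all clock and PAR bZIP genes, up to 12 genes with a rhythmic ratio, and the 5 largest differences in each direction for nuclei and for CryKO. Sumf1, Dusp1, Nfkbia, Zfp36l2, Col3a1, Clk1 and Clk4 are not covered by this rule and were added once their values were known. The members and lists were chosen with earlier results of these data known. One gene is not reported here.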

Additional observations from a re-analysis of the deposited data

Results flagged for a closer look

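The ratio in whole liver and in nuclei differed, relative to the median difference, by an interaction term in 2453 genes that were higher in UT and 2223 that were lower. The ratio in CryKO and in WT whole livers differed by the same kind of term in 77 genes that were higher in CryKO and 1037 that were lower. Without CryKO ZT20 replicate 1 these were 128 and 3617. With 12 libraries a group, Dixon's test for a single outlying library was not applied.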

How the results depend on the processing

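For the level of the ratio (1074 higher, 661 lower), a minimum of 50 counts gave 437 lower and no length correction gave 1369 lower. The other alternatives stayed within 1.5 times, and leaving out 1 library gave 1046 to 1069 higher and 640 to 659 lower. Without the replicate block of the library, 1009 were higher and 644 lower. Without length correction the distance from the median turned for Arntl (-2.15), Bhlhe40 (2.08), Bhlhe41 (2.53), Mrps12 (0.80), Pim3 (0.26), Ppox (1.68) and Sox9 (2.14).

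The 7 rhythmic ratios became 310 with DESeq2, 2 with a replicate block, 2 with time as a factor and 0 to 8 without 1 library. The 1263 rhythmic mRNAs became 2209 with DESeq2 and 728 to 1582 without 1 library, and with the replicate block they were 1093. The 135 rhythmic pre-mRNAs became 618 with DESeq2, 34 with the replicate block and 13 to 132 without 1 library. Without ZT4 replicate 1 these counts were 7, 1582 and 132.

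For UT against NT, dropping the centring on the median gave 9838 higher and 8 lower, which follows from the shift of 2.94 between the populations, and leaving out 1 numbered pair gave 2411 to 2466 higher and 2181 to 2213 lower. With the replicate block 2454 were higher and 2225 lower.

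For CryKO against WT (77 higher, 1037 lower), DESeq2 gave 141 higher, a minimum of 50 counts 49 higher, separate TMM factors 564 higher and 460 lower, separate DESeq2 factors 529 and 468, and separate TMM factors without CryKO ZT20 replicate 1, chosen after seeing the data, 767 and 582. Leaving out 1 library gave 58 to 128 higher and 704 to 3617 lower, the last without CryKO ZT20 replicate 1. With the replicate block 70 were higher and 917 lower.

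Same-numbered UT and NT libraries deviated together only weakly (r 0.097 to 0.162 over genes), and same-numbered CryKO and WT libraries had r of -0.072 to 0.091, so the numbers were not taken to pair the samples. By the number of WT mice that the paper names, the UT and NT libraries of a time came from the same mice. Which replicate number belongs to which mouse is not given in the sources used here. Where the cause of a change is not given, the cause was not tested. Low pre-mRNA counts limit the ratios of some genes: 593 tested genes had 0 pre-mRNA counts in at least 1 liver. Of the named genes set against each alternative, the level kept its call and direction in 2084 cases, gained the threshold in 18, lost it in 22 and turned in 7. The rhythm of the ratio kept it in 49 and lost it in 71, the comparison with nuclei in 273 and 1, and that with CryKO in 473 and 15, all 15 for Smad5.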
